A study of Mus musculus with 6 samples.

Results

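The transcription factors that give the small intestinal epithelium its identity were followed here through the response to thyroid hormone. The set was fixed by gene symbol and has 8 members, Cdx1, Cdx2, Gata4, Gata5, Gata6, Elf3, Maf and Prdm1, out of 27179 genes in the deposited table. All 8 were found, and each held at least 10 normalized reads in all 6 libraries. The libraries were made from wild-type (WT) mouse organoids, budding epithelial cultures started from small intestine and kept in Matrigel with Intesticult medium. One group of 3 received T3, the active thyroid hormone, at 1e-07 M for 17 h, and the other group of 3 received the vehicle for the same time. The sources used here state no strain, age or sex of the source animals and do not say whether replicates were separate cultures or animals. The limma p-values set the difference between the groups against the spread among libraries within a group, and that spread may be technical.

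The factors in this set act in layers. The caudal homeobox proteins Cdx1 and Cdx2 specify hindgut endoderm, and Cdx2 keeps the epithelium intestinal rather than gastric. Zinc finger proteins of the GATA family divide the gut by region: Gata4 marks the proximal small intestine and is lost toward the ileum, Gata6 is present along the whole length, and Gata5 is found in differentiated cells. Elf3 is an ETS factor of epithelia needed for enterocyte and goblet cell maturation. Maf is a large basic leucine zipper factor of villus enterocytes, and Prdm1 (Blimp-1) is a repressor that holds the suckling type of epithelium in place until weaning. Thyroid hormone is a classical promoter of that change from suckling to adult epithelium in rodents.

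With T3, Maf, Elf3 and Cdx2 rose most. Maf rose 2.94-fold, Elf3 1.98-fold and Cdx2 1.38-fold, Gata4 and Gata6 rose by 11.9% and 9.63%, Gata5 and Prdm1 fell, and Cdx1 did not pass the test. Values are reads per gene that the authors scaled between libraries and rounded ("normalized reads"), given as mean ± SD with n = 3 per group. Fold changes come from limma on log2(value + 1), and a gene was called at a Benjamini-Hochberg adjusted p under 0.05 over 13052 tested genes. By this rule 5 of the 8 factors rose and 2 fell. Of all tested genes 44.8% were called, 24.0% higher and 20.8% lower. The share of called genes in the set was not tested against that background, because its members were chosen with results of these data known. The median log2 fold change was 0.15 over the 8 factors and -0.01 over all tested genes. Of all called genes 53.6% were higher with the deposited scaling, 38.8% with equal column totals and 43.0% with upper-quartile scaling.

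Promoter sequences are shown for Cdx2 and Elf3, the most strongly raised of the abundant factors, and for Gata5, which went the other way from the other GATA genes. RefSeq (GRCm38.p6) entries were used for 4 of the 8 factors, and the 250 bases before the annotated start site were searched. Searched on both strands were AGGTCA, a core bound by the thyroid hormone receptor and other nuclear receptors, TTTAT, a core of caudal homeobox sites, GATAA, the core of sites for the zinc finger family, GGAAG, a core of sites for Elf3 and its relatives, and TGCTGA, the core of sites for Maf. The octamer ATGCAAAT, the site of POU homeobox factors, was also searched. The octamer was added after the sequences had been read. Capitals mark the matches, which do not overlap one another. All 3 sequences are on the minus strand and are written 5′ to 3′ in the direction of the gene.
Cdx2, chr5:147307250-147307499: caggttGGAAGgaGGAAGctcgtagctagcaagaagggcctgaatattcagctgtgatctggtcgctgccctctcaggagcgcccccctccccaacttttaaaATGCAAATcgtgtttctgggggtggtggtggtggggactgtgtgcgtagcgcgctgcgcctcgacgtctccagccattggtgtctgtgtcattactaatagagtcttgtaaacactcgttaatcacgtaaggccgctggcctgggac
Elf3, chr1:135258473-135258722: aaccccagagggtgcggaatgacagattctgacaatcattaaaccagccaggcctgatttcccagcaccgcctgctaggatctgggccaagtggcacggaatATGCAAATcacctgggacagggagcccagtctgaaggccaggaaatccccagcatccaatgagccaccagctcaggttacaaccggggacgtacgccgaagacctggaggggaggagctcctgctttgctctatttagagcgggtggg
Gata5, chr2:180334680-180334929: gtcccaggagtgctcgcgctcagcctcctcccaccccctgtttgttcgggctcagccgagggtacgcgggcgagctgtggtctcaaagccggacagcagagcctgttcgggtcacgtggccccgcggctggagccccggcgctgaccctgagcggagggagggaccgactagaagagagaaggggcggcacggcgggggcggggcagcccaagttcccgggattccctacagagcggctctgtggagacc
The octamer began 147 bases before the start site of Cdx2 and 148 bases before that of Elf3, in the same orientation. It was in 1.6% of 32851 promoter windows of the same length. Because the octamer was added after the sequences had been read, that share cannot test its presence in them. GGAAG was matched 2 times in the Cdx2 window and 3 times in that of Prdm1, and 64.1% of all windows hold it. AGGTCA, in 14% of all windows, was in none of the 4 windows searched, nor were TTTAT (37.3%), GATAA (22.6%) and TGCTGA (16.1%). The Gata5 window held no match and was 70% G and C, against 55.2% for Cdx2, 57.2% for Elf3, 59.2% for Prdm1 and a median of 52.4% over all windows. A match describes letters only, and binding was not measured.

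The caudal genes responded differently. Cdx2 (gene ID 12591, GRCm38 chr5:147300900-147307249, 3 exons) held 6168, 6585 and 6783 normalized reads with vehicle, against 9323, 9044 and 8680 after T3. Every T3 library was above every vehicle library, and the rise was 0.47 ± 0.05 (SE) on the log2 scale (adjusted p = 3.4e-05). Cdx1 (gene ID 12590, chr18:61018862-61036199, 3 exons) stood at 7974, 8125 and 8711 with vehicle and at 8052, 7301 and 8269 with T3. These values overlap, and Cdx1 was not called, with a log2 difference of -0.07 and a 95% interval from -0.19 to 0.05 (adjusted p = 0.317). Within libraries the ratio of Cdx1 to Cdx2 reads was 1.29, 1.23 and 1.28 with vehicle and 0.864, 0.807 and 0.953 with T3. The ratios of the groups did not overlap, but a ratio of reads also depends on gene length. Per kb of exon the mean ratio (averaged as log2) was 1.56 with vehicle and 1.07 with T3. By that measure Cdx1 stayed above Cdx2 in T3 replicates 1 and 3 and was just below it in T3 replicate 2. The log2 ratio differed between the groups by -0.54, whatever the gene lengths. An exact two-sided permutation gave p = 0.1, the smallest that 3 against 3 libraries allow, and 0.133 adjusted over the 4 pairs compared. Per kb of exon, Cdx1 made up 60.9% ± 0.602 of the caudal total with vehicle and 51.7% ± 2.08 with T3. That total, Cdx1 and Cdx2 together, was 7762 ± 356 normalized reads per kb with vehicle and 8703 ± 286 with T3.

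**Figure D1:**
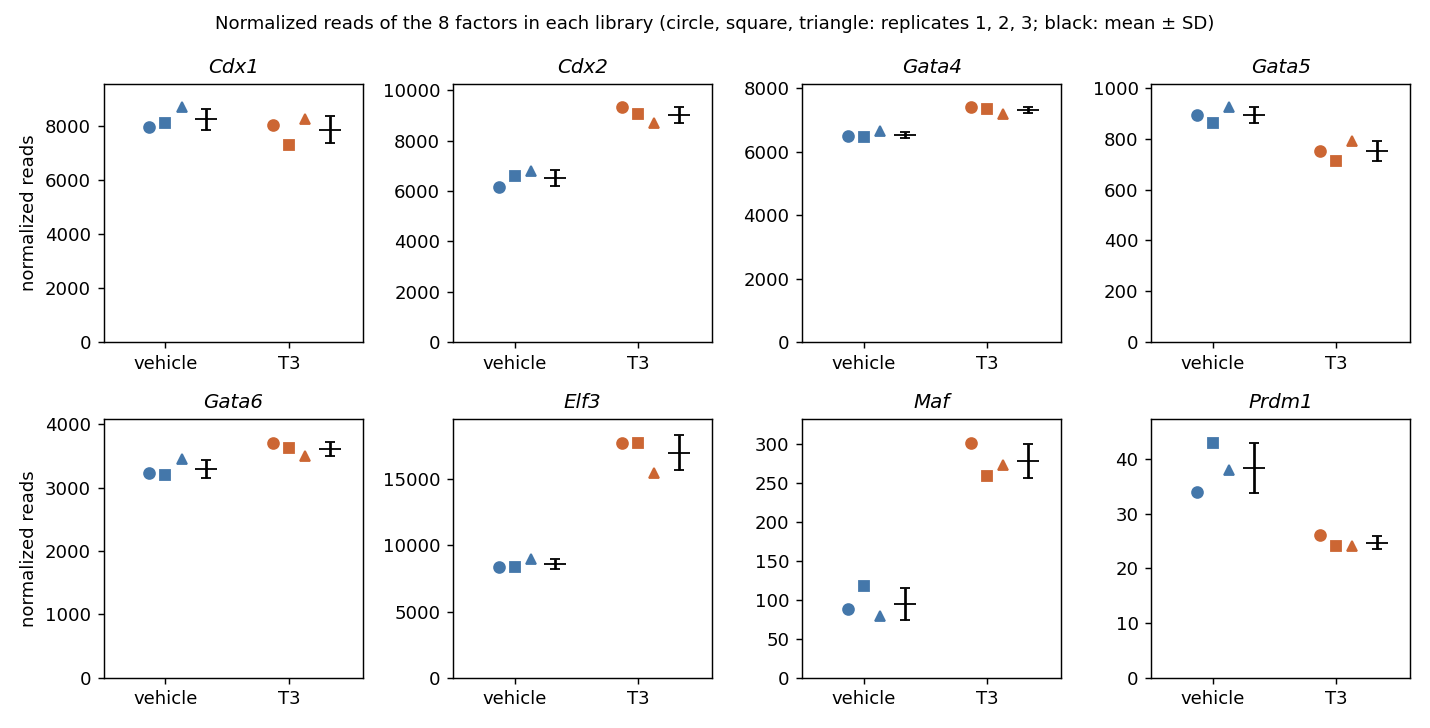
Normalized reads of each of the 8 factors in the 3 vehicle (blue) and 3 T3 (orange) libraries, with replicates 1 to 3 as circle, square and triangle and the mean ± SD in black; every vertical axis starts at 0. The groups are apart in every panel except that of Cdx1, and T3 replicate 3 is the lowest T3 library for Cdx2, Gata4, Gata6 and Elf3.

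Among the GATA genes, Gata4 and Gata6 were slightly higher while Gata5 went down. Gata4 (gene ID 14463, chr14:63198915-63245260, 7 exons) stood at 6511, 6460 and 6640 with vehicle and at 7407, 7342 and 7196 with T3. The replicates were so close, with an SD of 92.8 and 108, that a rise of 1.12-fold passed the test (log2 0.16 ± 0.03 SE, adjusted p = 0.00417). Gata6 (gene ID 14465, chr18:11052510-11085635, 7 exons) stood at 3228, 3197 and 3459 with vehicle and at 3711, 3630 and 3492 with T3. The groups did not overlap, but vehicle replicate 3 and T3 replicate 3, at 3459 and 3492, nearly met.

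The call of Gata6 (log2 0.13 ± 0.04 SE, adjusted p = 0.0347) was a weak one. It was lost without vehicle replicate 1 (adjusted p = 0.0807), vehicle replicate 2 (0.126), T3 replicate 1 (0.135) or T3 replicate 2 (0.091), with equal column totals (0.223) and with upper-quartile scaling (0.14). In the authors' deposited table Gata6 has an adjusted p of 0.0665, against 0.00376 for Gata4. The ratio of Gata4 to Gata6 reads ran from 1.92 to 2.02 with vehicle and from 2.00 to 2.06 with T3, which overlap. Its difference was 0.03 on the log2 scale (exact permutation p = 0.4, adjusted 0.4).

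Gata5 (gene ID 14464, chr2:180325088-180334679, 6 exons) stood at 892, 862 and 924 with vehicle and at 751, 713 and 790 with T3. All T3 libraries were below all vehicle libraries, and Gata5 fell 1.19-fold (log2 -0.25 ± 0.06 SE, adjusted p = 0.00652). The ratio of Gata4 to Gata5 reads was 7.29, 7.49 and 7.18 with vehicle and 9.85, 10.3 and 9.10 with T3, with no overlap. That is a log2 difference of 0.41 (exact permutation p = 0.1, the smallest possible, adjusted 0.133). Per kb of exon, Gata5 supplied 8.37% ± 0.11 of the summed GATA level with vehicle and 6.48% ± 0.405 with T3, while Gata4 supplied 59.7% ± 0.644 and 61.4% ± 0.221. An antisense gene, Gata5os, overlaps Gata5 and averaged 12.3 and 16 normalized reads. Whether counting used strand is not stated in the sources used here, so reads of the 2 genes cannot be told apart. The blood-cell members of the family, Gata1, Gata2 and Gata3, averaged at most 0.333 normalized reads.

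Zfpm1, which encodes FOG-1, a cofactor that binds GATA proteins, is in the list of other intestinal factors described later. It stood at 6759, 6467 and 7196 normalized reads with vehicle and at 4938, 5207 and 5328 with T3. Zfpm1 thus fell 1.32-fold (adjusted p = 0.000134), with no overlap between the groups. Its relative Zfpm2 averaged 0 and 0.333.

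**Figure D2:**
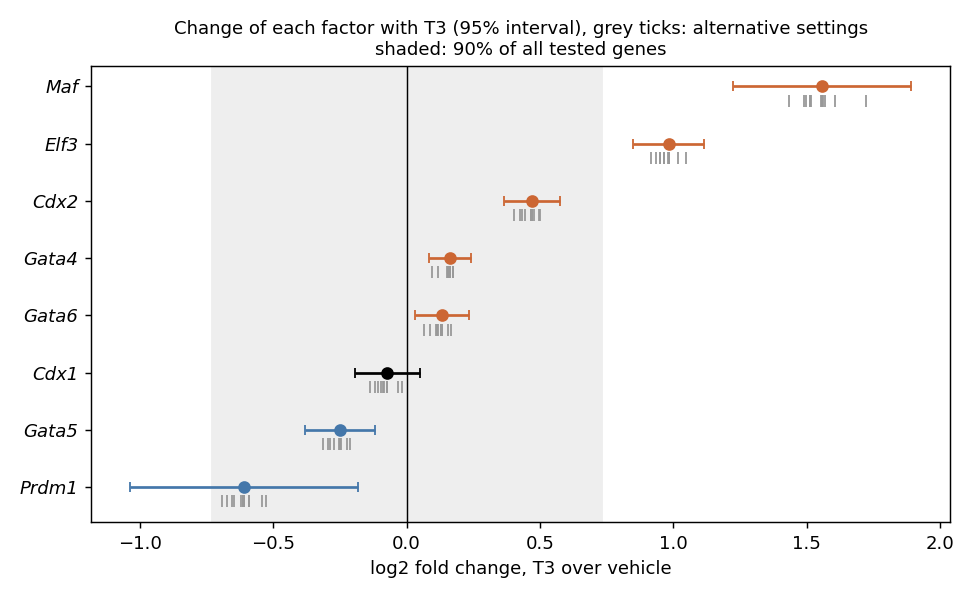
Log2 fold change of each factor, T3 over vehicle, with its 95% interval (orange called higher, blue called lower, black not called), and grey ticks for the values under 17 alternative settings (16 for Prdm1). The shaded band holds the 90% of tested genes with the smallest absolute change, up to 0.73, and only Maf and Elf3 have their estimate outside it.

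Elf3 showed the largest change of any abundant member. Elf3 (gene ID 13710, chr1:135253574-135258472, 9 exons) stood at 8396, 8394 and 9010 normalized reads with vehicle and at 17773, 17783 and 15503 with T3. Even the lowest T3 library, replicate 3, was far above the highest vehicle library. The rise was 0.98 ± 0.06 (SE) on the log2 scale (adjusted p = 1.16e-06), an absolute change larger than that of 94.1% of tested genes. The gene nearest upstream, Rnpep, an aminopeptidase gene on the same strand 4227 bases away, averaged 6299 and 10174 normalized reads and was also called higher (log2 0.69, adjusted p = 1.43e-06).

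Ehf, a close relative of Elf3 and likewise an epithelial ETS factor, went the other way. Ehf stood at 7835, 7137 and 7013 with vehicle. After T3 it stood at 5713, 5295 and 6451, and it fell 1.26-fold (adjusted p = 0.00378). The ratio of Elf3 to Ehf reads was 1.07, 1.18 and 1.28 with vehicle and 3.11, 3.36 and 2.40 with T3, a log2 difference of 1.32 (exact permutation p = 0.1, the smallest possible, adjusted 0.133). Per kb of exon, Elf3 supplied 72.0% ± 1.83 of the Elf3 and Ehf total with vehicle and 86.4% ± 2.11 with T3. Among the other ETS relatives listed, Elf1 averaged 3527 and 3928, Elf2 2159 and 2104 and Elf4 2650 and 2387. Elf5 was at 0 in every library. Of these Elf1 was called higher and Elf4 lower.

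Maf had the largest fold change of the 8 but a low level. Maf (gene ID 17132, chr8:115703253-115706894, 1 exon as listed) stood at 88, 118 and 79 normalized reads with vehicle and at 302, 259 and 273 with T3. The lowest T3 library, at 259, was well above the highest vehicle library, at 118. The rise was 1.56 ± 0.15 (SE) on the log2 scale (adjusted p = 2.76e-05), larger in absolute size than the change of 97.8% of tested genes. Of the small Maf genes, which lack an activation domain, Mafk rose 1.40-fold (adjusted p = 8.73e-05), and Maff averaged 187 and 328.7 and was called higher. Mafg averaged 857 and 837.7 and was not called. Mafa averaged 1 and 3 normalized reads, and Nrl was listed at 0.

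By Euclidean distance between centred log2 profiles over the 6 libraries, the named genes nearest to Maf were Lhfpl2 (distance 0.204), Ifi47 (0.263) and Id3 (0.353). They averaged 31 and 95, 55.3 and 156.3, and 62.3 and 159 normalized reads with vehicle and T3. Such a distance over 2 groups of libraries mostly compares the size of the change.

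Prdm1 was close to the limit of detection. Prdm1 (gene ID 12142, chr10:44437175-44458687, 7 exons) stood at 34, 43 and 38 normalized reads with vehicle and at 26, 24 and 24 with T3. The groups did not overlap, and the nearest libraries were at 34 and 26. The fall was -0.61 ± 0.19 (SE) on the log2 scale, with a 95% interval from -1.04 to -0.18 (adjusted p = 0.0255). The call was lost without vehicle replicate 2 (adjusted p = 0.0953), vehicle replicate 3 (0.0595), T3 replicate 1 (0.0508) or T3 replicate 2 (0.0667). In the authors' deposited table Prdm1 has an adjusted p of 0.14. The profiles nearest to Prdm1 were those of Gpc2 (0.0803), Tmem35b (0.146) and Slc27a1 (0.146). Of its relatives, Prdm16 rose 1.19-fold (adjusted p = 0.00239), and Prdm2, Prdm4, Prdm10 and Prdm15 were not called. Prdm8 averaged 1.33 and 0.

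The groups of 7 of the 8 factors did not overlap, a property shared by 54.9% of all tested genes. The authors' deposited table called 5 of the 8 at an adjusted p under 0.05, Cdx2, Gata4, Gata5, Elf3 and Maf, where 35.1% of its genes with an adjusted p were called. Both fits use the same 6 libraries.

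Set beside each other per exon length, the factors spanned a wide range, and their order differed between groups only at the top. With vehicle the order of normalized reads per kb was Cdx1 (4726 ± 222), Elf3 (4300 ± 178), Cdx2 (3036 ± 146), Gata4 (1927 ± 27.3), Gata6 (1032 ± 44.8), Gata5 (270.3 ± 9.39), Maf (26.1 ± 5.61) and Prdm1 (7.45 ± 0.877). No neighbours in this order overlapped between libraries, and the closest were Cdx1, from 4557 upward, and Elf3, up to 4505. With T3, Elf3 led at 8510 ± 657, followed by Cdx1 at 4499 ± 290 and Cdx2 at 4203 ± 150. The last 2 overlapped, since Cdx1 reached down to 4172 and Cdx2 up to 4346. Below them Gata4 (2156 ± 31.8), Gata6 (1131 ± 34.7), Gata5 (227.5 ± 11.7), Maf (76.3 ± 6.02) and Prdm1 (4.8 ± 0.225) kept their places. Averaged over both groups, Elf3, Cdx1, Cdx2 and Gata4 stood above 97.6%, 96.5%, 95.4% and 91.0% of tested genes by level per kb. Gata6 stood above 81.5%, Gata5 above 45%, Maf above 20.3% and Prdm1 above 4.46%.

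**Figure D3:**
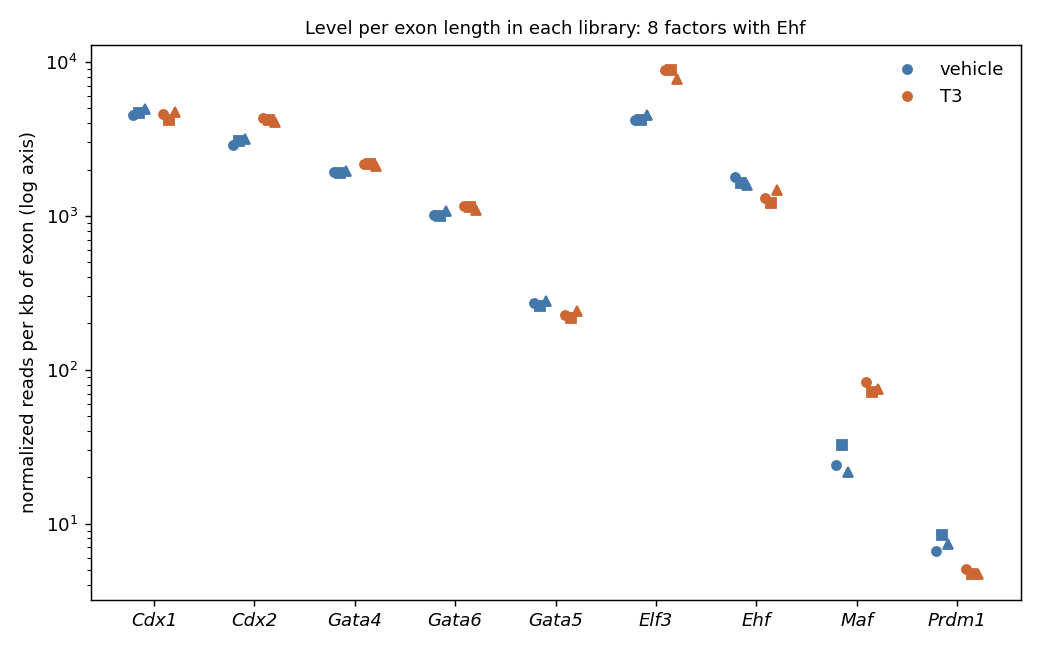
Normalized reads per kb of exon on a log axis, in each vehicle (blue) and T3 (orange) library (circle, square and triangle: replicates 1 to 3), for the 8 factors and the relative Ehf. Elf3 passes Cdx1 with T3, from 4300 to 8510 per kb, and Prdm1 lies lowest of the 8, at 7.45 and 4.8.

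The cultures had the profile of small intestinal epithelium. All 10 epithelial markers were tested, 6 were higher and 2 lower, and the median log2 fold change was 0.18. For all tested genes the shares were 24.0% higher and 20.8% lower. The adhesion proteins Cdh1 and Cdh17 rose 1.28-fold and 1.31-fold, Vil1 rose, and Fabp2, a fatty acid binding protein, fell 1.59-fold. Of 17 stomach and colon identity genes 3 passed the filter on low values, and by limma 0 were called and 0 had an unadjusted p under 0.05. Sox21, a stomach factor, averaged 87 and 87.3 and was not called. Another 6, Sox2, Gkn2, Muc5ac, Muc6, Hoxb13 and Car1, had a value of 0 in every library and are named for that reason.

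Maf and Prdm1 are also factors of macrophages and lymphocytes, so markers of those cells were read beside them. Summed over the 10 macrophage markers, vehicle libraries held 142 to 187 normalized reads and T3 libraries 434 to 444. Of 3 tested markers 2 were higher and 0 lower (limma), and 0 lower ones had an unadjusted p under 0.05. Most of the T3 sum came from Itgam, an integrin gene, which stood at 350, 341 and 356 after T3 and rose 3.59-fold. Ptprc, the marker of all leukocytes, averaged 0.333 and 1.33, Csf1r averaged 0.333 and 1, and Adgre1 and C1qb were at 0 throughout. Mrc1 averaged 18.3 and 33 and was called higher at an adjusted p of 0.0493. Of the 12 T, B and plasma cell markers 5 were listed at 0 throughout, Jchain averaged 1 and 0.333, and the 2 tested ones, Sdc1 and Xbp1, are also made by epithelium. Sdc1 fell 1.11-fold. The sum of the list, nearly all from Sdc1 and Xbp1, was 13165 to 13823 with vehicle and 12987 to 13524 with T3. Fibroblast and smooth muscle markers, in tissue where Gata4 and Gata6 are also made, summed to 311 to 392 with vehicle and 258 to 331 with T3, nearly all from Vim and Pdgfrb, and by limma 0 were called and 0 had an unadjusted p under 0.05. Endothelial and neural markers summed to 253 to 278 with vehicle and 172 to 225 with T3, and Lyve1 was the 1 called gene, lower at an adjusted p of 0.0478.

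The list of other intestinal epithelial factors moved both ways, with 5 of 14 tested genes higher, 3 lower and a median log2 fold change of 0.02. Over all tested genes the shares were 24.0% higher and 20.8% lower. Hnf4g, a nuclear receptor that acts with Hnf4a on enterocyte genes, rose 1.53-fold from 1861, 1945 and 1937 to 2981, 2855 and 2937 (adjusted p = 2.07e-06). Foxa2, a forkhead factor of endoderm, fell 2.07-fold from 548, 528 and 583 to 252, 255 and 293 (adjusted p = 7.1e-06). Creb3l3, a factor of lipid handling, fell 1.5-fold (adjusted p = 0.00144). Hnf4a, Klf5 and Vdr were also called higher, each by less than the change of Hnf4g. The count of higher genes was 3 in place of 5 without vehicle replicate 1, vehicle replicate 2 or T3 replicate 1, with equal column totals or upper-quartile scaling, with no variance trend and at a threshold of 0.01. Among the 23 family relatives, 13 were tested, 5 were higher and 2 lower, and the count of lower genes was 1 without T3 replicate 1 or T3 replicate 2 and at a threshold of 0.01.

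Genes known to depend on Cdx2 in the intestine were mostly higher, 10 of 13 tested, with 2 lower and a median log2 fold change of 0.64. Of all tested genes 24.0% were higher and 20.8% lower. This list, like the others, was chosen with earlier results of these data known, and a part of Cdx2 in the count was not tested. Lct, the lactase gene, rose 3.07-fold (adjusted p = 1.66e-07), Sis, sucrase-isomaltase, 2.42-fold (2.79e-07), Heph, an iron oxidase, 1.66-fold (9e-07) and Vil1, the microvillus protein villin, 1.56-fold (3.66e-06). The 2 lower genes, named after their values were seen, were Gucy2c, the guanylin receptor, which averaged 10819 and 8636, and Mep1a, a brush border protease, which averaged 605.7 and 464. The count of lower genes was 1 without vehicle replicate 2, with no variance trend and at a threshold of 0.01. Isx, a direct Cdx2 target in the intestine, averaged 1.33 and 2.33 normalized reads and was not tested.

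More regional genes rose than fell in both the proximal and the distal list. The shares over all tested genes were 24.0% higher and 20.8% lower. Of 11 proximal genes 4 rose and 0 fell (limma), with a median of 0.46. They were Lct, Apoa1, an apolipoprotein, at 3.08-fold, Slc46a1, the folate carrier, at 2.64-fold, and Slc40a1, the iron exporter, at 2.23-fold. Fabp1, a fatty acid binding protein that averaged 8672 and 7327, was the 1 proximal gene lower at an unadjusted p under 0.05. The count of lower proximal genes was 1 with equal column totals, with upper-quartile scaling and without vehicle replicate 1 or T3 replicate 1. Of 9 distal genes 5 rose and 1 fell, with a median of 1.05. Slc51a and Slc51b, the subunits of the basolateral bile acid exporter, rose 5.93-fold and 4.68-fold, and Slc10a2, the ileal bile acid importer, went from 35, 84 and 33 to 295, 188 and 290 reads, a rise of 5.39-fold (adjusted p = 0.000255). Amn, part of the receptor for vitamin B12 uptake, fell 1.58-fold. Holding ileal bile acid transport genes down in the proximal gut is a known role of Gata4. Its own level rose by 11.9% (log2 0.16, or 0.096 with equal column totals), and a part of Gata4 in these changes was not tested. Fabp6, the ileal bile acid binding protein and likewise known to be held down by Gata4, held 2, 10 and 8 reads with vehicle. Its T3 values were 14, 3 and 74, and it was not called.

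Suckling-type and adult-type genes, the classes that Prdm1 is known to separate, both held more higher than lower genes. Among all tested genes 24.0% were higher and 20.8% lower. Of 11 tested suckling-type genes 6 rose and 1 fell, with a median of 0.24. Beside Lct, Fcgrt, the neonatal Fc receptor, rose 5.00-fold from 110, 119 and 148 to 657, 606 and 621 (adjusted p = 2.83e-07), Neu1 rose 1.66-fold and Gusb 1.31-fold, the last 2 being lysosomal enzymes. The count of lower genes in this list was 3 with equal column totals or upper-quartile scaling. Of 6 adult-type genes 4 rose and 1 fell, with a median of 0.79. With Sis, Mgam, the maltase-glucoamylase gene, rose 2.10-fold, Slc2a5, the fructose transporter, 2.84-fold, and Arg2, a mitochondrial arginase, 1.43-fold. The lower gene, Treh, the trehalase gene, averaged 420.7 and 300.7, and was named after its values were seen. The count of lower genes was 2 with equal column totals or without T3 replicate 2, and 0 without vehicle replicate 3 or at a threshold of 0.01.

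Along the villus axis, genes of the middle zone, where Maf is known to act on nutrient transporters, were higher in 8 of 10 cases and lower in 0 (limma), with a median of 0.56. Of all tested genes 24.0% were higher, and a part of Maf in this count was not tested. The count of lower genes was 0 under all 17 alternatives and none was lower at an unadjusted p under 0.05. The 2 not called were Slc7a7 (adjusted p = 0.0699) and Slc6a19 (0.863). Slc2a2, the basolateral hexose transporter, rose 4.40-fold, Slc5a1, the sodium-glucose transporter, 2.23-fold, Slc7a9 2.20-fold and Slc7a8 1.53-fold, the last 2 being amino acid transporters. Of 6 genes of the villus bottom 5 rose and 1 fell, with a median of 0.61. Ccl25, a chemokine, rose 1.69-fold, Il18 2.90-fold and Lypd8 1.36-fold, and Nlrp6 fell 1.21-fold. Of 11 villus tip genes 6 rose and 1 fell, with a median of 0.35. Fos, an early response factor, rose 3.66-fold, Apoa1 3.08-fold and Cdh1 1.28-fold, and Ada, adenosine deaminase, fell 1.79-fold. Without T3 replicate 1 the count of higher tip genes was 3. These lists share genes, such as Lct, Apoa1 and Slc2a5. In bulk libraries more cells of a type and more RNA per cell cannot be told apart, and the part of either in the rise of Elf3, Cdx2 and Maf was not tested.

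**Figure D4:**
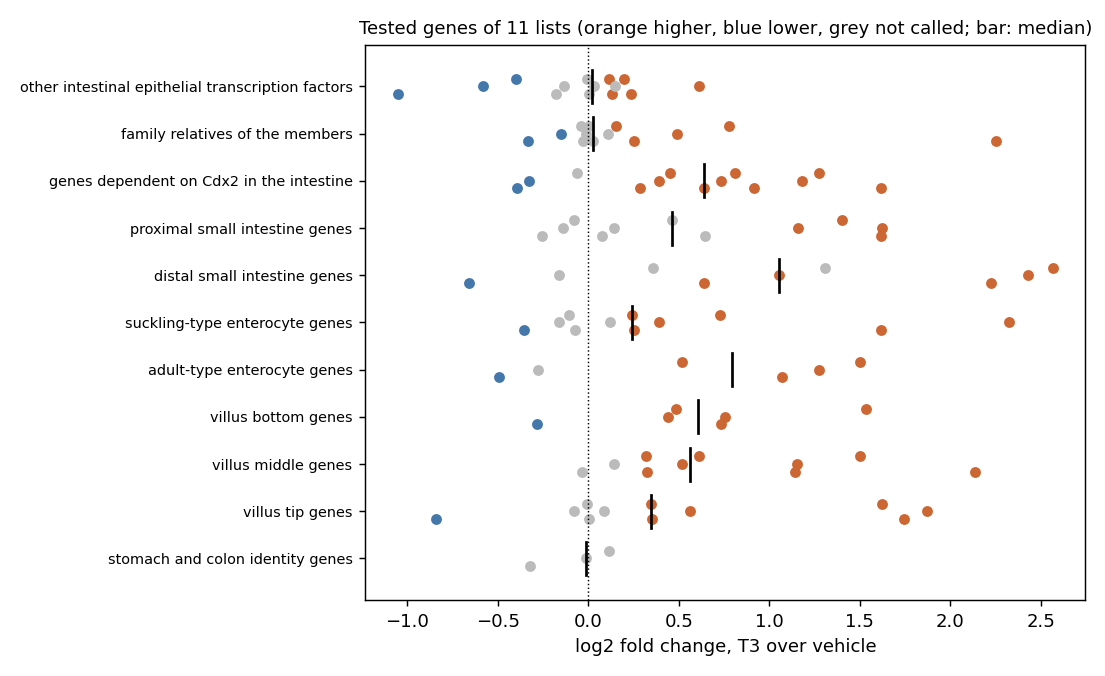
Log2 fold change, T3 over vehicle, of every tested gene in 11 lists of intestinal genes (orange called higher, blue called lower, grey not called), with the list median as a black bar. Medians range from -0.01 for stomach and colon identity genes to 1.05 for distal small intestine genes, and genes such as Lct and Apoa1 stand in more than 1 list.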

How the data were processed

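RNA sequencing of 6 organoid libraries, 3 with T3 and 3 with vehicle, was analysed from a gene table deposited by the authors. The submitters' processing notes list the aligner STAR, the Subread package and DESeq2 and give no version of any. The build is mm10 (GRCm38), per the file headers. The deposited sample columns hold a normalized score: reads scaled between libraries and rounded by the authors. They were recognised as such because the deposited mean column equals their mean to within 0.833 in every gene. The authors' deposited log2 fold changes and p-values were used only where named. Column totals were 28197080 to 28611883 normalized reads with vehicle and 29510422 to 29974091 with T3. Depth before scaling is not in these columns, and no count model was applied.

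The 13052 genes that reached 10 normalized reads in 3 or more libraries were fitted with limma 3.58.1 in R 4.3.3 on log2(value + 1), with a variance trend and no replicate block. This is the form planned for scaled values. Fold changes on this scale understate the change of low genes. The script was tested on simulated data. Ratios between factors were compared by exact permutation over libraries. No 2 libraries were copies, since at most 1.69% of tested genes had equal values in a pair. The 8 factors and the 16 gene lists were chosen with earlier results of these data known. Up to 4 called genes with the smallest p are named per list, or 2 with the highest mean where none was called, with the 3 nearest profiles of the factor that rose most and of the one that fell most. Other genes are named as background or after their values were seen. A few genes of the lists are counted but not reported here by name. Alternatives were other scalings, pseudocounts, filters, variance models and thresholds, a replicate block, and leaving out each library.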

Additional observations from a re-analysis of the deposited data

How the results depend on the processing

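Cdx2, Gata4, Gata5, Elf3 and Maf kept their direction and call, and Cdx1 stayed uncalled, under all 17 alternatives. The calls of Gata6 and Prdm1 did not. Gata6 (log2 0.13, adjusted p = 0.0347) was not called with equal column totals (log2 0.066), upper-quartile scaling (0.087), no filter on low values (0.13, adjusted p = 0.053), no variance trend (0.13, adjusted p = 0.0838) or a threshold of 0.01 (0.13), and its value ran from 0.11 to 0.17 over the sets without a library. Prdm1 was not called at a threshold of 0.01 (log2 -0.61) and was untested with a minimum of 50 normalized reads, its value running from -0.69 to -0.53 over the sets without a library. The number of factors called lower was 1 in place of 2 with that minimum and at a threshold of 0.01, and 1 to 2 over the sets without a library. At 0.01 the genes called lower over the whole table were 1753 in place of 2716. With equal column totals the level of Gata4 was 1971 with vehicle and 2107 with T3 normalized reads per kb, a move beyond 1 SD. Genes named from lists were mostly picked for the smallest p in these same libraries. A kept call was therefore likely from the start and does not show that the list counts held. Of these 38 genes, over 646 fits, 644 kept direction and call. The other 2 were of Sox21, never called, whose value turned to 0.10 without vehicle replicate 2 and 0.18 without T3 replicate 1, and ran from -0.16 to 0.18 over the sets without a library. The cause of these changes was not tested.

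Libraries with the same replicate number showed no shared deviation, which cannot settle whether they were paired. Deviations of same-numbered libraries correlated at -0.07, 0.03 and -0.06, and 1 of 6 libraries correlated best with its own number. With a replicate block 2933 genes were higher and 2472 lower, the count of factors called lower was 1, Gata6 was at log2 0.13 (adjusted p = 0.0702) and Prdm1 at -0.61 (adjusted p = 0.0558), neither called. The block also left 3 other intestinal factors called higher in place of 5, and 2 adult-type genes called lower in place of 1. Values near 30 normalized reads, as for Prdm1, limit what these libraries can show.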
